A study of Mus musculus with 2 samples.

Results

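The suprabasal epidermal and duct keratins Krt1, Krt2, Krt10, Krt77, Krt78, Krt79 and Krt80 were followed in mouse hair follicles on microarrays. They were chosen by gene symbol in the platform annotation, which gave 7 probe sets for these 7 genes, 1 for each, out of 45037 non-control probe sets and 18193 named genes. The choice was made with earlier results of these data known, so the signals below are a description and carry no test. The arrays compared follicles of dnFGFR2-IIIb transgenic mice with follicles of wild-type mice, both at postnatal day 10, in a study of the targets of signalling by FGFR2-IIIb, the splice form of fibroblast growth factor receptor 2 that epithelial cells carry. Each group was 1 array of total RNA from about 300 follicles, pooled from 3 mice of separate litters with about 100 follicles from each mouse. The labels used here give neither the promoter that drives the transgene nor the strain or sex of the mice. With 1 array per group there was no replicate error to set a difference against, pooling hid the spread between mice, and a smaller number of cells of one kind could not be told apart from less RNA per cell.

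Keratin filaments are built from pairs of a type I and a type II keratin, and keratinocytes exchange their keratins as they mature. Basal cells carry Krt5 and Krt14, and cells that leave the basal layer of the epidermis switch to the type II keratin Krt1 and its type I partner Krt10, joined in the upper layers by Krt2. Krt77 and Krt78 are type II keratins of suprabasal cells in stratified epithelia, Krt79 marks the cells that line the upper follicle canal and the duct of the sebaceous gland, and Krt80 is a type II keratin found near desmosomes in differentiating epithelial cells. The growing follicle is made mainly of the hair shaft and the inner root sheath, which use other keratins, so that the epidermal set is carried chiefly by the upper follicle and by epidermis that stays attached to it.

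Krt77 and Krt78 read higher in transgenic follicles, Krt10 read moderately higher, Krt79 was close to equal, Krt80 read somewhat lower, and Krt1 and Krt2 lay under the detection floor on both arrays. Signals are linear intensities in arbitrary units. A floor of 10.5, the 40th percentile of both arrays, separated signals treated as measured from those treated as undetected. Of the 7 genes, 4 exceeded the floor on both arrays, 1 exceeded it in transgenic follicles alone and 2 lay under it on both. Of 27 control probe sets with no mouse target, the brightest read 15.8 in transgenic follicles and 8.50 in wild-type follicles. In transgenic follicles 3 of them exceeded the floor and in wild-type follicles 0. Signals just over the floor are therefore near background, above all in transgenic follicles.

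**Figure D1:**
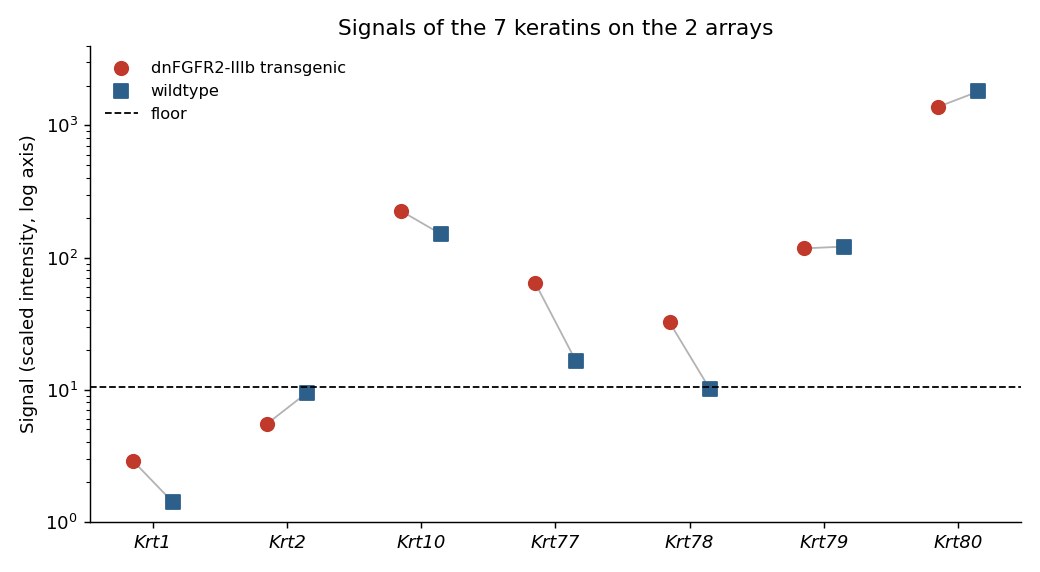
Signals of the 7 keratins in scaled intensity on a log axis, with a red circle for transgenic and a blue square for wild-type follicles, and the floor of 10.5 as a dashed line. Krt77 and Krt78 lie higher in transgenic follicles, Krt79 is nearly level, and both signals of Krt1 and of Krt2 are under the floor. Probe sets differ in how strongly they bind, so heights of different genes cannot be compared.

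Krt10, the type I partner of the suprabasal pair, read 225 in transgenic follicles and 150 in wild-type follicles. Both signals were more than 14 times the floor, a 1.502-fold difference and a log2 ratio of 0.59. Its probe set, 1452166_a_at, has the suffix that the manufacturer gives to sets matching several transcripts of a gene. The main type II partner was not seen beside it. Krt1 read 2.90 in transgenic follicles and 1.40 in wild-type follicles, and Krt2 read 5.50 in transgenic follicles and 9.50 in wild-type follicles. All 4 of these signals lay under the floor, so no ratio is given for either gene. With the floor lowered to the 20th percentile (2.80) both signals of Krt2 passed it, with a log2 ratio of -0.79, and Krt1 passed it in transgenic follicles alone, with a bound of 0.05 on the log2 scale. Each was read by a single probe set (1422481_at for Krt1 and 1427154_at for Krt2), and whether those sets bind their transcripts well was not tested. The label of the group as suprabasal epidermal keratins thus rests on Krt10 and Krt77, and on Krt78 in transgenic follicles alone. For the defining Krt1 and Krt2, absence of the transcript could not be told apart from a probe set that binds poorly.

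Krt77, whose gene lies next to Krt1, had the largest ratio of the group. It read 63.8 in transgenic follicles and 16.6 in wild-type follicles, a 3.84-fold difference and a log2 ratio of 1.94. The transgenic signal was 6.07 times the floor, while the wild-type signal was 1.58 times the floor. The wild-type value thus lay little above background and carries most of the uncertainty of the ratio. Among 11565 genes with both signals over the floor, Krt77 ranked 7 from the highest ratio, and among the 37 keratins that could be ranked it was 1.

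Krt78 read 32.3 in transgenic follicles and 10.1 in wild-type follicles. The wild-type signal was just under the floor, so the ratio is a bound in this setting, at least 3.08-fold higher in transgenic follicles (log2 1.62). The bound depends on the scaling. Both signals exceeded the floor with equal medians, quantile normalization and loess, at log2 ratios of 1.53, 1.55 and 1.54. With a pseudocount in place of the floor the log2 ratio was 1.05, and with equal spiked controls it was a bound of 1.71. Both Krt77 and Krt78 were weak, and each rests on 1 probe set (1433923_at for Krt77 and 1438849_at for Krt78), with no further set of the same gene to compare.

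Krt79, the upper follicle and duct keratin, read 117 in transgenic follicles and 121 in wild-type follicles, a log2 ratio of -0.04. Its gene lies directly beside Krt78, and its ratio was near that of the typical gene. With the arrays scaled to equal spiked controls its log2 ratio became 0.15, so its sign depends on the scaling. Setting the medians of the arrays equal put the median log2 ratio of all genes at -0.14, and setting the spiked controls equal put it at 0.19. Krt80 read 1382 in transgenic follicles and 1807 in wild-type follicles, a log2 ratio of -0.39, or 1.31-fold lower. It kept a ratio under 1 in every scaling tried, between -0.53 (arrays at equal medians) and -0.19 (equal spiked controls).

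Counted by the 2-fold rule, 1 of the 4 keratins above the floor on both arrays was higher (Krt77) and 0 were lower. The background was 1.6% of genes higher (185 of 11565) and 1.58% lower (183 of 11565). With bounds against the floor included, 2 of 5 were higher (Krt77 and Krt78), against 2.84% of 14045 genes, and 0 were lower, against 2.39%. Nothing is read from this contrast, since the keratins were selected with these same ratios in view. The median log2 ratio over the 5 keratins above the floor on at least 1 array was 0.59, that of Krt10, beside 0.01 over all such genes. Krt78 entered this median only as a bound. Over the 4 keratins above the floor on both arrays the median was 0.27, beside -0.0003 over all such genes.

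Dim genes spread more widely, so each ratio was also placed among the genes of its brightness tertile. Genes were divided at geometric mean signals of 44.2 and 171, the tertile limits of those probe sets whose signals both exceeded the floor. Probe sets of the same gene within a tertile disagreed by an SD of log2 ratios of 0.54 for dim, 0.35 for middle and 0.19 for bright sets. This is a spread between probes on the same arrays and leaves out mice and hybridisations. Krt77 ranked 4 of 2924 dim genes, where 4.72% were at least 2-fold higher. Both signals had to exceed the floor, so the dimmest of these genes could not reach a ratio as large. The rank is therefore not a comparison with genes of equal brightness. Krt10, although under 2-fold, ranked 64 of 4863 bright genes, and its log2 ratio of 0.59 exceeded the bright tertile's SD. With signals of 225 and 150 it lay at the lower edge of that tertile, which runs up to 13546. It was thus ranked with far brighter genes, and the adjoining middle tertile had the wider SD of 0.35. Krt80 ranked 315 from the lowest of the same 4863 genes, and its log2 ratio of -0.39 also exceeded the bright tertile's SD. Krt79 ranked 2128 of 3778 genes in the middle tertile, and its log2 ratio of -0.04 was well inside that tertile's SD.

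**Figure D2:**
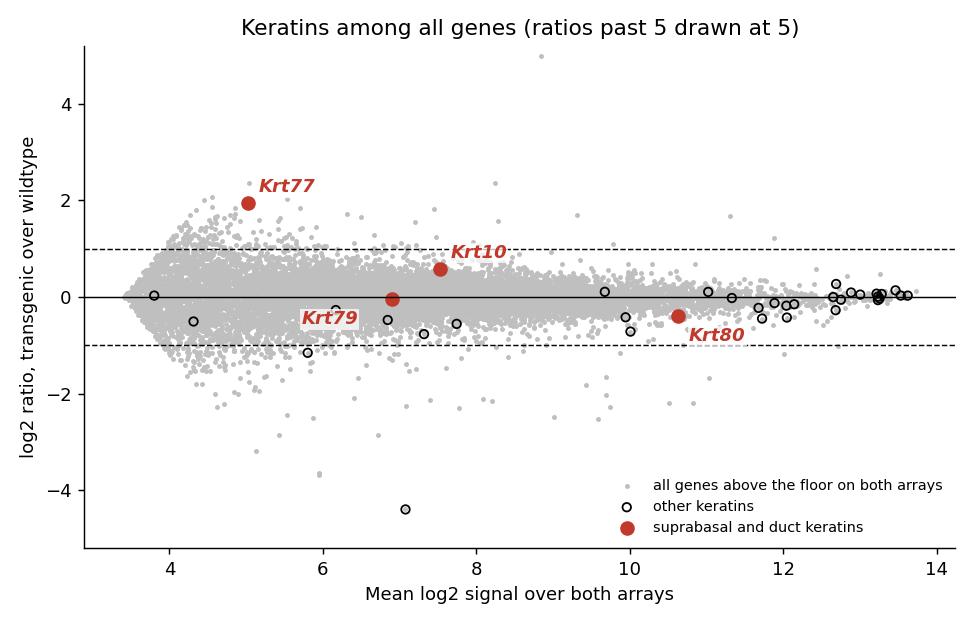
The log2 ratio of transgenic over wild-type signal (vertical) against the mean log2 signal (horizontal) for 11565 genes with both signals over the floor in grey, other keratins as open circles and the suprabasal and duct keratins in red, with dashed lines at 2-fold. Krt77 stands at 1.94 in the wide, dim end of the cloud, Krt10 at 0.59 on its upper edge, Krt79 at -0.04 in its middle and Krt80 at -0.39 on its lower side, and the sign of Krt79 turns with equal spiked controls.

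The promoters are shown as a description, and the 3 keratins with ratios above 1 do not share one start-site sequence. Whether these sequences bear on the ratios was not tested. The table of RefSeq promoters for build GRCm38.p6 held 5 of the 7 genes, without Krt1 and Krt80. Printed are the 120 bases that precede each annotated start, 5′ to 3′ on the gene's own strand, which is the minus strand for all 5. Capitals mark letters of the TATA box (TATATA and its variant with TATAAA) or the related GATAAA on that strand within 50 bases of the start. The windows are chr15:101869706-101869825 for Krt77, chr15:101954288-101954407 for Krt78, chr11:99389365-99389484 for Krt10, chr15:101940325-101940444 for Krt79 and chr15:101818170-101818289 for Krt2.
Krt77: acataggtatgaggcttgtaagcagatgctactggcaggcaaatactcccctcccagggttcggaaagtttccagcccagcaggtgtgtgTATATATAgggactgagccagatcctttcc
Krt78: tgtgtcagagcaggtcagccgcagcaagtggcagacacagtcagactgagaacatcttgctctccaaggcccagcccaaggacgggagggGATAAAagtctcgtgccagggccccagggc
Krt10: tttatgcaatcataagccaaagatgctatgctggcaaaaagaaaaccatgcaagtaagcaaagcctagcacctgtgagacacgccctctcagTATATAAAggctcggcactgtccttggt
Krt79: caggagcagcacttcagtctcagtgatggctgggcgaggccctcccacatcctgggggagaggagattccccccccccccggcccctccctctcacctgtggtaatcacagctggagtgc
Krt2: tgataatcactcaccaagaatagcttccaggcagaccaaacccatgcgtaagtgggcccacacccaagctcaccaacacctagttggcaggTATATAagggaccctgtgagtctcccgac

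The letters TATATA had their first base at -30 and at -28 in Krt77, where the matches overlap, at -28 in Krt10 and at -29 in Krt2, counted back from the start. In Krt10 they overlapped TATAAA, whose first base was at -26. Krt78 held GATAAA instead, from -30. In Krt79 no such match preceded the start, and GATAAA began 32 bases after it. Of all 32851 promoters in the table, 1.35% held TATATA, 2.63% TATAAA and 0.916% GATAAA on the gene's strand in the 50 bases before the start. Krt2 has the letters TATATA at nearly the same distance as Krt77 and Krt10, but it was under the floor on both arrays and has no ratio to compare.

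Motifs of epidermal regulators were also sought in the whole window of 250 bases before and 50 after the start, on both strands. TGANTCA, the AP-1 motif, had 0 matches in the 5 genes and was held by 7.81% of all promoters. The Sp1 motif GGGCGG also had 0 matches and was held by 35.7% of them. The core of Klf motifs, CACCC, matched in Krt2, Krt10 and Krt79 and occurred in 57.5% of all promoters. GATAAA also matched with its first base at -198 in Krt2 and -169 in Krt77 (counted back from the start), and 10.1% of all promoters held it on either strand. A match of letters is not evidence of a binding site, and its lack says only that these letters are missing from this window.

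Among all keratins the largest ratios were those of Krt77 and Krt78, both dim. The suprabasal group was chosen with these ratios known. Of 48 keratin genes with a probe set, 39 exceeded the floor on at least 1 array. In the 34 that were not in the group, 12 ratios were above 1 and 22 under 1, with a median log2 ratio of -0.09, beside 3 above and 2 under 1 in the group. The split in the other keratins depended on the scaling and was 1 above and 33 under 1 with equal medians and 20 above and 14 under 1 with equal spiked controls. Krt77 and Krt78 were the keratins at least 2-fold higher, Krt78 as a bound. The keratins at least 2-fold lower were Krt84, a hard keratin of the hair cuticle, and Krt19, a simple epithelial keratin that also marks follicle stem cells, which dropped under 2-fold with equal spiked controls. These differences between classes could not be tested with 1 array per group.

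**Figure D3:**
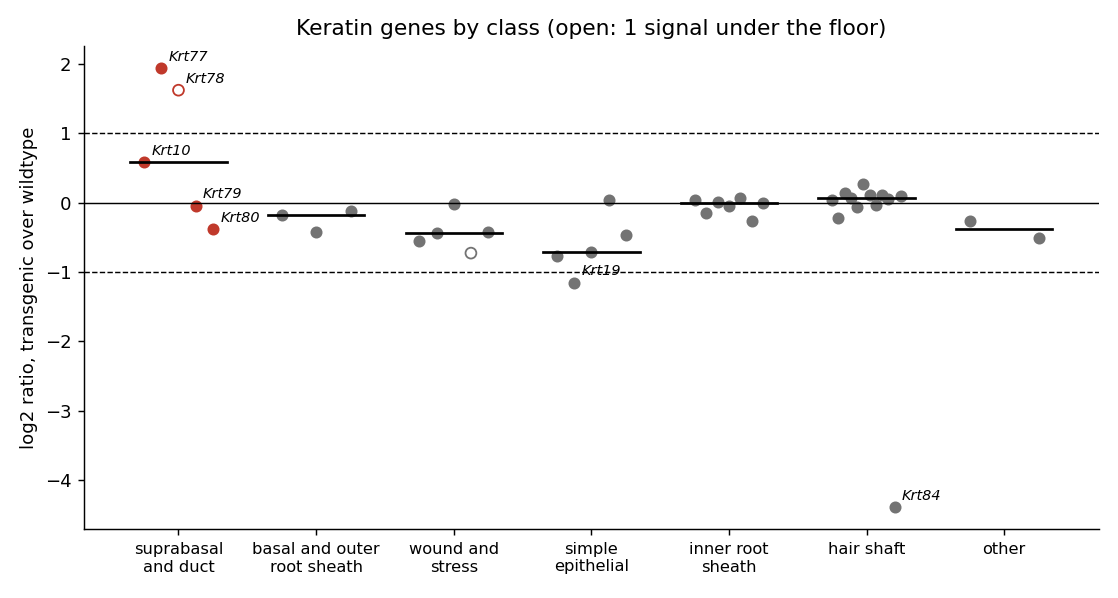
The log2 ratio of transgenic over wild-type signal for each keratin gene above the floor on at least 1 array, by class, with the class median as a bar, open circles where 1 signal was under the floor and dashed lines at 2-fold. The suprabasal and duct keratins run from -0.39 for Krt80 to 1.94 for Krt77, and the wound, basal and simple epithelial classes lie mostly under 0. With equal spiked controls ratios with both signals over the floor shift upward by 0.19 and that of Krt78 by less, so that Krt79 and 2 of the 3 basal keratins turn positive.

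Basal, wound and simple epithelial keratins mostly had ratios under 1, unlike Krt77 and Krt10 but like Krt79 and Krt80. The basal keratins Krt5, Krt14 and Krt15 had log2 ratios between -0.42 and -0.12, but with equal spiked controls 2 of the 3 turned above 1. All 5 keratins of wounded and stressed epidermis or of the companion layer had ratios under 1, with a median log2 ratio of -0.45, and 4 of them stayed under 1 with equal spiked controls, quantile normalization and loess. Krt16, a type I keratin induced in wounds, read 177 in transgenic follicles and 260 in wild-type follicles, and Krt6b lay under the floor in transgenic follicles. Of 5 simple epithelial keratins 4 were under 1, and at least 4 were in every scaling run. Krt18 read 122 in transgenic follicles and 208 in wild-type follicles, and Krt8, its partner, read 97.5 in transgenic follicles and 135 in wild-type follicles. The 7 inner root sheath keratins stayed between -0.27 and 0.06, and 11 of 12 hair shaft keratins between -0.22 and 0.27, with Krt84 as the exception at -4.40. All of these but Krt84 were bright, where probe sets of a gene disagreed by an SD of 0.19. For dim sets, such as those of Krt77 and Krt78, it was 0.54. The dim keratins outside the group were Krt88 at -0.51, Krt7 at 0.03 and Krt6b at a bound of -0.73. The part of brightness in the differences between classes was not tested.

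Along chromosome 15, which carries 26 protein-coding keratin genes in this assembly, the ratios that could be taken did not follow gene order. Krt77 sits between Krt1 and Krt76, both of which lay under the floor on both arrays, and Krt2 and Krt4 beyond them were also under it. Krt78 sits between Krt79, at -0.04, and Krt8, at -0.47. Krt80 stands at the other end of the cluster beside Krt7, which had a log2 ratio of 0.03. Krt10 lies in the type I cluster on chromosome 11, between Krt28, an inner root sheath keratin at -0.05, and Krt12, which was under the floor.

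**Figure D4:**
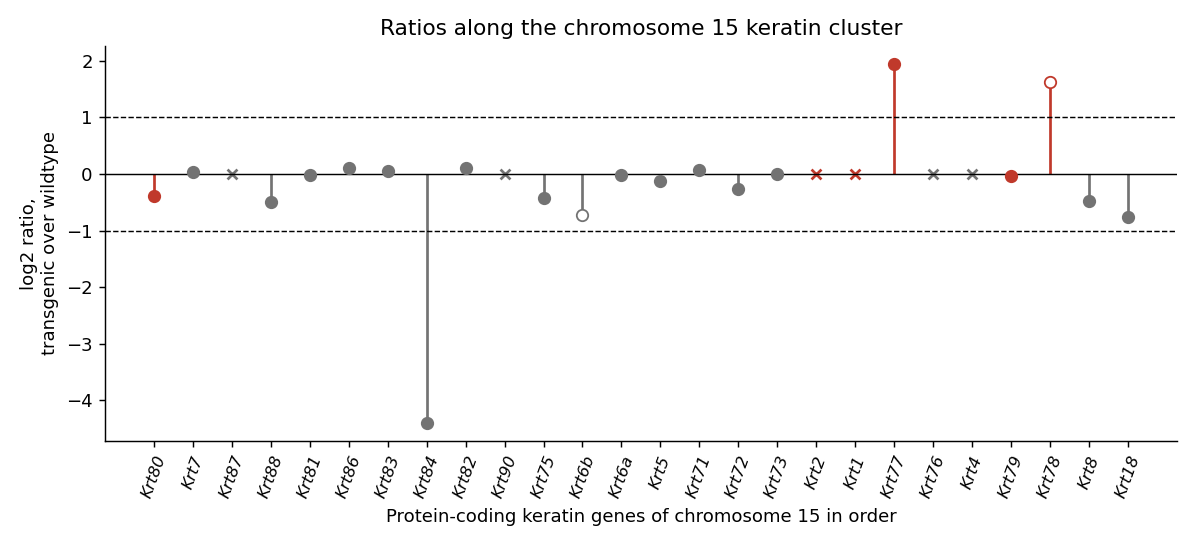
The log2 ratio of transgenic over wild-type signal for the 26 protein-coding keratin genes of chromosome 15 in gene order, with the suprabasal and duct keratins in red, open circles where 1 signal was under the floor and crosses at 0 for genes without a ratio. Krt77 stands between genes without a ratio, so its neighbours cannot be compared with it, and Krt78 stands between genes with ratios near or under 1.

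Genes that act beside these keratins in the maturing keratinocyte went both ways. Of 25 late differentiation genes on the arrays, 21 exceeded the floor on at least 1, with 11 ratios above 1 and 10 under 1 and a median log2 ratio of 0.02, which became -0.13 with equal medians and 0.21 when spiked controls were set equal. Loricrin (Lor), a main protein of the cornified envelope, read 130 in transgenic follicles and 78.6 in wild-type follicles, with a log2 ratio of 0.36 at another probe set beside 0.73. Lce1c, a late cornified envelope gene, read 29.7 in transgenic follicles and 14.1 in wild-type follicles. Involucrin (Ivl), an envelope precursor, read 683 in transgenic follicles and 3110 in wild-type follicles, and Rptn, a fused-type S100 protein of the envelope, read 20.4 in transgenic follicles and 50.7 in wild-type follicles, although a dim probe set of it gave a bound of 0.19 on the log2 scale. Filaggrin (Flg), which bundles keratin filaments, was under the floor on both arrays, as were Hrnr, Lce1f and Alox12b. The ratios above 1 of Krt77, Krt78, Krt10 and loricrin were therefore not shared by the whole list.

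Desmosome and envelope partners, to which suprabasal filaments attach, were nearly level. Of 12 such genes 6 had a ratio above 1 and 6 under 1, and 0 differed by 2-fold. With equal medians 2 were above 1, and with equal spiked controls 11. The desmosomal cadherins Dsc3 (1193 in transgenic follicles and 888 in wild-type follicles) and Dsg1a (1177 in transgenic follicles and 899 in wild-type follicles) had the largest ratios, at log2 ratios of 0.43 and 0.39, although another probe set of Dsc3 gave -0.37. Periplakin (Ppl) had a log2 ratio of -0.22 and envoplakin (Evpl) one of -0.16. Among 22 transcription factors and Notch pathway genes that regulate keratinocyte maturation, 15 ratios were above 1 and 7 under 1, with a median of 0.04. With equal medians 9 were above 1 and 13 under 1, with a median of -0.10. Ovol2, a zinc finger repressor, read 23.8 in transgenic follicles and lay under the floor in wild-type follicles, at least 2.27-fold higher. Klf5 (0.32, with 0.43 at another probe set and a bound of -0.54 at a dim one), Maf (0.30, and from -0.67 to 0.61 at other probe sets above the floor) and Cebpa (0.28) followed.

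Other markers of the upper follicle and duct, where Krt79 is made, were also close to level. Of 9 such genes, 7 had a ratio above 1 and 2 under 1, 0 were 2-fold apart, and the median log2 ratio was 0.09. With equal medians 4 were above 1 and 5 under 1, with a median of -0.06, and with quantile normalization or loess 5 were above 1 and 4 under 1. Defb6, a beta-defensin of the upper follicle, had a log2 ratio of -0.41 and Atp6v1c2, a proton pump subunit, one of -0.35. Sostdc1, an inhibitor of BMP and Wnt signals, stood at 0.34, and Gata6, a factor of the sebaceous duct, read 15.5 in transgenic follicles and was under the floor in wild-type follicles, but its other probe sets gave -0.36 and -0.18. Of 10 sebaceous gland genes 4 were above 1 and 6 under 1, with a median of -0.16, which became 0.03 with equal spiked controls. Mc5r, a melanocortin receptor of sebocytes, read 25.6 in transgenic follicles and 13.8 in wild-type follicles, and Cidec, a lipid droplet protein, had a log2 ratio of 0.58. Far2 was under the floor in transgenic follicles and Pparg was under it in wild-type follicles.

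Markers of other cell types also differed between the pools beside these keratins. Of 12 immune genes, 9 exceeded the floor on at least 1 array and 8 of these had a ratio above 1, or 6 with equal medians. Their summed signal was 333 in transgenic follicles and 234 in wild-type follicles, with Ptprc, Cd207 and Cd3e under the floor on both. The 9 dermal fibroblast genes summed to 3079 in transgenic follicles and 2259 in wild-type follicles, 6 of them with ratios above 1, none being under the floor on both arrays. The 14 genes of the basal epidermis and outer root sheath summed to 12994 in transgenic follicles and 15363 in wild-type follicles, with 11 ratios under 1, or 8 with equal spiked controls. The 5 endothelial genes summed to 91.2 in transgenic follicles and 67.3 in wild-type follicles, 2 of 4 ratios above 1, with Pecam1 under the floor on both. The 5 muscle genes summed to 132 in transgenic follicles and 109 in wild-type follicles, 2 of 3 ratios above 1, with Ckm and Tnnt3 under the floor on both. The 4 adipocyte genes summed to 5214 in transgenic follicles and 7368 in wild-type follicles, with 2 ratios above 1 and 2 under 1. The 8 melanocyte genes summed to 13234 in transgenic follicles and 14364 in wild-type follicles, 3 of them above 1, or 5 with equal spiked controls. These sums include signals under the floor and can rest on 1 bright probe set, so they do not measure cell numbers. Fabp4 alone read 5108 in transgenic follicles and 7211 in wild-type follicles. Among the fibroblast genes Dcn alone read 1590 in transgenic follicles and 985 in wild-type follicles. Single dim markers of other cell types had ratios as large as those of Krt77 and Krt78. H2-Aa, an MHC class II chain of antigen-presenting cells, read 42.4 in transgenic follicles and 7.60 in wild-type follicles, at least 4.04-fold higher, with bounds of 0.77 and 0.74 on the log2 scale at 2 other probe sets. The muscle actin Acta1 read 37.3 in transgenic follicles and 9.40 in wild-type follicles, at least 3.55-fold higher. Cdh5, an endothelial cadherin, read 42.3 in transgenic follicles and 13.7 in wild-type follicles, 3.09-fold higher. Another probe set of Cdh5 was under the floor on both arrays. The adipocyte hormone Lep and the fibroblast factor Twist2 were at least 2.54-fold and 2.50-fold higher, while Adipoq, another adipocyte hormone, read 2.13-fold lower. The part of these cell types in the ratios of Krt77, Krt78 and Krt10 was not tested.

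Facts of the arrays as a whole bear on every ratio. The median signal was 17.0 in transgenic follicles and 15.4 in wild-type follicles, and 61.3% of probe sets in transgenic follicles and 58.7% in wild-type follicles exceeded the floor. The 3′ to 5′ signal ratio, which rises as RNA degrades, was 0.852 for Gapdh and 2.06 for beta-actin in transgenic follicles, and 0.796 for Gapdh and 1.89 for beta-actin in wild-type follicles. Xist, made from the inactive X chromosome, read 1146 in transgenic follicles and 352 in wild-type follicles, and the Y-linked Eif2s3y read 0.400 in transgenic follicles and 191 in wild-type follicles, so that genotype and the sexes pooled cannot be told apart. The brightest Fgfr2 probe set read 368 in transgenic follicles and 197 in wild-type follicles. Another Fgfr2 set read 206 in transgenic follicles and 147 in wild-type follicles, and a further one was under the floor on both arrays. It is unknown here if the transgene contains the targets of these sets.

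**Figure D5:**
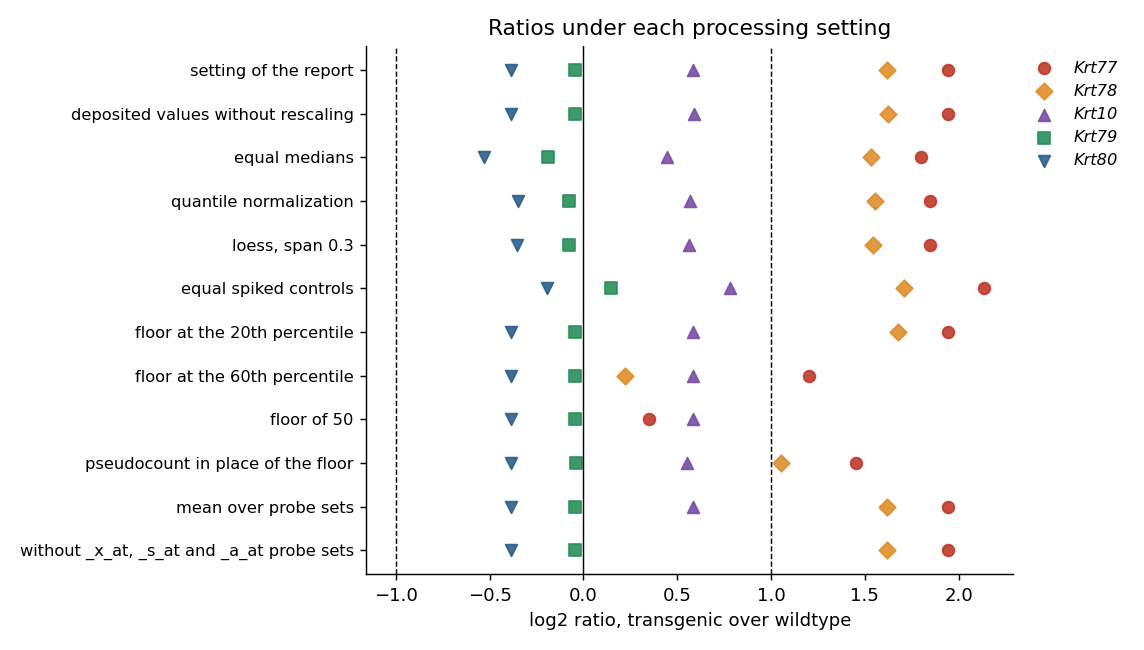
The log2 ratio of transgenic over wild-type signal (horizontal) of the 5 keratins above the floor under each processing setting (vertical), with dashed lines at 2-fold. Krt10 stays between 0.44 and 0.78 and Krt80 between -0.53 and -0.19, Krt79 lies under 0 except with equal spiked controls, and Krt77 and Krt78 lie nearer 0 as the floor is raised.

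The ratios of Krt10 and Krt80 kept their sign in every setting that gave them a value, and those of Krt77 and Krt78 depended on the floor. With equal spiked controls Krt10 had a log2 ratio of 0.78 and Krt80 one of -0.19, and without the suffixed probe sets Krt10 had no value. With the floor at the 60th percentile (27.7), Krt77 was at least 2.30-fold higher in transgenic follicles, and with a floor of 50 the bound was 1.28-fold. Krt78, at 32.3 in transgenic follicles, had a bound of 1.17-fold at the 60th percentile and dropped out with a floor of 50. Both had ratios above 1 in every setting that gave them a value, as the plot of settings shows.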

How the data were processed

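Total RNA of pooled follicles was hybridised to Affymetrix mouse expression arrays, 1 per group. The authors deposited 1 linear intensity per probe set; judging by the values, both arrays had been scaled to a common 2% trimmed mean, and the summary algorithm is not given in the sources used here. After 64 control probe sets were left out, both columns were rescaled to 1 trimmed mean, signals under the floor were raised to it, and log2 ratios of transgenic over wild-type signal were taken with Python 3.11.15 and pandas 2.3.3. The probe set with the highest mean stood for its gene. Of 45037 probe sets, 34945 had 1 symbol, 932 had several and 9160 had none; 34741 matched a RefSeq gene of GRCm38.p6 by gene ID, 0 under another symbol. The named genes were all keratins and up to 4 genes per other list with the largest absolute log2 ratio; the rule also took the 3 genes nearest each keratin in signal, which are not reported because levels of different probe sets cannot be compared; genes named outside it were chosen after their values were seen. The keratins and lists were chosen with earlier results of these data known. A global scaling hides any shift shared by all genes. The number of arrays, 1 per group, limits the precision.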

Additional observations from a re-analysis of the deposited data

How the results depend on the processing

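With 1 array per group no value has a replicate error, and no setting can supply one. No paired analysis was possible because each group is 1 array. Dim signals limit Krt77 and Krt78, and the removal of sets with the suffixes _x_at, _s_at or _a_at leaves no value for Krt10. A floor of 50 and equal spiked controls were chosen after seeing the data. With bounds left out, the keratins at least 2-fold higher numbered 1 in the setting of the report. They numbered 2 with equal medians, quantile normalization, loess or a floor at the 20th percentile. With the floor at the 60th percentile or at 50 they numbered 0, although at the 60th Krt77 had a bound of 1.20 on the log2 scale. A 1.5-fold threshold counted 2, Krt77 and Krt10. By the threshold of each setting, 0 were lower in every setting run. The median log2 ratio over 5 keratins, 0.59, became 0.050 over 7 with the floor at the 20th percentile, where Krt1 and Krt2 gained values. It was 0.22 at the 60th, 0.15 at 50, 0.79 without the suffixed sets and 0.78 with equal spiked controls. All genes at least 2-fold higher numbered 185 and lower 183; the counts were 115 and 296 with equal medians, 845 and 685 with the floor at the 20th percentile, 50 and 61 at the 60th, 22 and 37 at 50, 53 and 76 with a pseudocount, 735 and 784 at 1.5-fold, 27 and 40 at 3-fold, and 314 and 103 with equal spiked controls, while the mean over probe sets gave 117 higher. Quantile normalization gave 140 higher and 230 lower, and loess 134 and 235. The median log2 ratio of all genes was -0.14 with equal medians and 0.19 with equal spiked controls. Krt77, Krt78 and Krt10 had ratios above 1 in every setting that gave them a value.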
